A study of Homo sapiens with 160 samples.

Results

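Mometasone and indacaterol were each given alone and together to BEAS-2B cells for 2 h, and each gene's response to the pair was compared with the sum of its responses to the single agents. BEAS-2B is an immortalised human bronchial epithelial cell line, grown here to confluence and left without serum overnight. The comparison used 20 of the 150 RNA sequencing libraries matched to a label, from a series of 160 labelled samples. The 4 groups of 5 libraries were MF+Ind (mometasone 100 nM with indacaterol 100 nM), MF (mometasone alone), Ind (indacaterol alone) and NS (vehicle). A further 20 libraries of 2 h held the same 4 treatments in the presence of 10 µM carbachol, an acetylcholine receptor agonist, and served as a check that shared no library with the first set. The labels number the replicates 1 to 5 in every group and do not say whether a number stands for a separate culture or day, so p-values measure the spread between these libraries, which may be technical. All 20 libraries come from 1 cell line of wild-type genotype, and none from primary airway cells.

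Mometasone is a glucocorticoid: it binds the glucocorticoid receptor (NR3C1), which moves to the nucleus, binds DNA at glucocorticoid response elements and also represses inflammatory genes. Indacaterol is a long-acting β-agonist, of a drug class that raises cyclic AMP in airway cells. Cyclic AMP activates protein kinase A, which phosphorylates CREB, a factor that binds cyclic AMP response elements. The drug classes are combined in inhaled treatment of asthma, and some genes respond to both.

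Expression is given as the deposited normalised value of each gene, 1 per library. For each replicate number the interaction was (MF+Ind minus MF) minus (Ind minus NS) on log2(value + 1). An interaction of 0 means that the 2 agents together changed a gene by the product of the single folds, a positive one that the pair ended above it and a negative one that it ended below. Folds and products of folds below are back-transformed from this scale, so they are folds of value + 1. They understate the change of a gene at low values, and the added 1 can enlarge or shrink its interaction. Of the 29273 genes in the table, the 13349 that reached 1 in 5 or more of the 20 columns were tested. A gene was called at a limma adjusted p under 0.05 (Benjamini-Hochberg over all genes tested).

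The libraries carried the marks of their labels. TSC22D3, which encodes the glucocorticoid-induced protein GILZ, ranged over 279 to 523 in the 10 libraries with mometasone, against 6.19 to 12.6 in the 10 without. NR4A3, an immediate response gene of cyclic AMP, ranged over 15.2 to 93.2 in the 10 libraries with indacaterol, against 0.21 to 0.61 in the 10 without. Among epithelial markers, KRT8 (median 359) and KRT18 (median 442) were abundant, but EPCAM (0.12 to 0.73), KRT5 (0 to 4.10), KRT14 and TP63 were near 0. Among fibroblast markers, COL1A1 (median 678) and PDGFRB (median 100) were abundant. The medians of COL1A2 (1.6), COL3A1 (1.36), DCN (1.99), LUM (0.02), PDGFRA (0.245) and POSTN (0.22) were low. T cell markers CD3D and CD3E were listed at 0 in all 20 libraries. Column sums ran over 895556 to 1449308, and 12584 to 13186 genes had a value of at least 1. The mitochondrial share was 7.90% to 27.7%, the highest in replicate 1 of Ind and the next 15.9%. In RNA of whole cultures, more cells expressing a gene and more RNA per cell cannot be told apart.

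At 2 h 76 genes (0.569% of those tested) ended above the sum of the single changes and 48 (0.36%) below it. The genes above the sum had a median log2 interaction of 0.93 (0.43 to 2.12), and in 75 of them all 5 replicate numbers gave a positive interaction. Those below had a median of -0.90, with sizes of 0.49 to 2.32, and in 46 of them all 5 were negative. These sign counts come from the values that gave the calls, so they are no separate support. Their share over all genes tested was not counted. Over all genes tested the median was 0.02, and the outermost 5% lay below -0.51 or above 0.53. Among the called genes, 32 above and 19 below departed at least 2-fold from the product of the single folds. The called genes with the largest departures, 14 in each direction with all 5 replicates of 1 sign, were HRK, PLAT, SOX9, SLC26A2, SLC16A14, RASD1, FLVCR2, MN1, SLC7A2, CGA, ZFAND5, ACSL5, EIF2AK3 and RBBP8NL above the sum, and SGK1, IL6, KRT17, IL11, C15orf48, SLC2A3, DMBT1, DDIT4, KRT16, TM4SF1, DUSP1, PER1, WWP2 and DHRS3 below it.

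**Figure D1:**
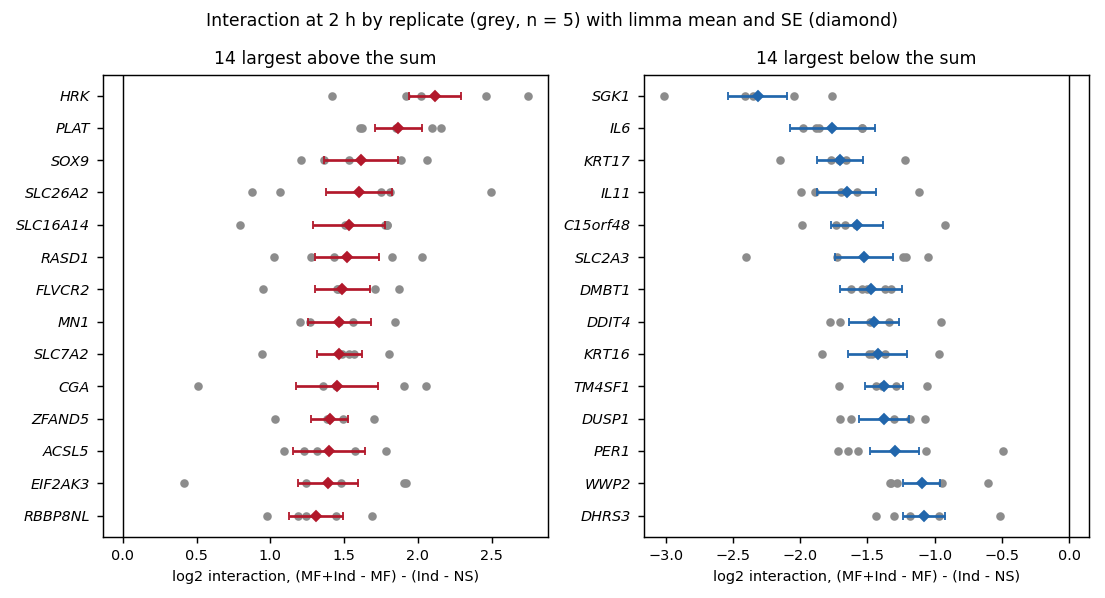
Log2 interaction at 2 h for the 14 largest genes above the sum (left) and the 14 largest below it (right). Grey points are the 5 replicate numbers, and diamonds and bars the limma mean and standard error. The vertical line marks 0, the sum of the single changes. Every point lies on its gene's side of 0 because the genes were chosen by that rule. HRK and PLAT lie farthest above and SGK1 farthest below.

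By the calls for each agent alone the genes fell into several forms. Of the 76 genes above the sum, 29 were called for neither agent alone, 15 were higher with indacaterol only, 14 higher with mometasone only and 11 higher with both. In 69 the pair was called higher than NS, in 71 higher than MF and in 72 higher than Ind. For 48 of the 76 every MF+Ind library lay above all 15 other libraries. That count describes the values that gave the call, and its share over all genes tested was not counted. The 76 also include 9 genes that could enter the test only by being high with MF+Ind. Of the 48 genes below the sum, 43 were higher with indacaterol alone: 18 with no call for mometasone, 17 also higher with mometasone and 8 lower with mometasone. Among the 18, C15orf48, CEBPA and KRT16 could enter the test only by being high with Ind. Whether more of the 48 did so was not counted. In 30 the pair was lower than Ind and in 13 it was higher than Ind. Over all genes tested, MF against NS called 2.63% higher and 1.12% lower, Ind against NS 4.94% higher and 2.05% lower, MF+Ind against MF 7.39% higher and 2.67% lower, and MF+Ind against Ind 6.58% higher and 4.75% lower. These contrasts use the same libraries as the interaction and describe it only.

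The largest departure above the sum among called genes was that of HRK, a pro-apoptotic member of the BCL2 family. HRK (chromosome 12, 116856144 to 116881441, minus strand, GENCODE 29 on GRCh38) had values of 35.1, 36.8, 47.9, 44.7 and 26.9 with MF+Ind, 9.36, 5.81, 6.52, 6.91 and 5.53 with MF, 2.7, 1.74, 1.73, 2.09 and 1.40 with Ind, and 1.84, 1.73, 1.82, 1.17 and 1.13 in NS. Every MF+Ind library was above every MF library, while the Ind and NS libraries overlapped. On the scale of value + 1 the pair raised HRK 15.3-fold over NS, against 3.53-fold for the product of the single folds, an interaction of 2.12 ± 0.18 (SE, limma adjusted p = 1.18e-05).

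ZFAND5, a zinc finger protein that binds ubiquitin and the proteasome, had the same form at a far higher level. Its values were 715, 591, 792, 681 and 535 with MF+Ind, 231, 206, 232, 209.6 and 189.6 with MF, 87.7, 107, 136, 127 and 99.8 with Ind, and 92.4, 98.1, 113, 103 and 72.5 in NS. The MF+Ind libraries stood apart from all others and the Ind and NS libraries overlapped. ZFAND5 had an interaction of 1.40 ± 0.12 (SE, limma adjusted p = 1.32e-05). ACSL5, an acyl-CoA synthetase that activates long-chain fatty acids, averaged 6.56 ± 2.50 with MF+Ind, 1.86 ± 0.786 with MF, 0.434 ± 0.203 with Ind and 0.430 ± 0.126 in NS (SD, n = 5 each), an interaction of 1.40. Other genes of this form, higher with mometasone alone and not called with indacaterol alone, included FOXO1, LPIN1, TGM2, ALDH1A3 and ANKRD1. ANKRD1, a muscle ankyrin repeat protein that responds to stretch, averaged 191 ± 75.5 with MF+Ind, 140.1 ± 34.5 with MF, 14.1 ± 4.95 with Ind and 16.9 ± 4.70 in NS (SD, n = 5 each). Its interaction was small, 0.66 ± 0.12 (SE).

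PLAT, the tissue-type plasminogen activator that turns plasminogen into plasmin, rose with each agent and further with both. It had 203, 314, 281, 494 and 214 with MF+Ind, 37.9, 85.3, 53.6, 64.1 and 39.3 with MF, 31.8, 48.5, 48.4, 66.9 and 33.3 with Ind, and 25.8, 40.3, 28.4, 38.9 and 22.2 in NS. The lowest MF+Ind library was above the highest of any other group, while the single agents overlapped NS. PLAT (value + 1) rose 9.14-fold over NS with the pair, against 2.51-fold for the product, with an interaction of 1.87 ± 0.16 (SE, limma adjusted p = 1.18e-05).

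Among membrane transporters, SLC26A2, which carries sulfate into cells, had 151, 135, 188, 174 and 87.6 with MF+Ind, 26.5, 25.9, 39.4, 28.1 and 18.2 with MF, 13.3, 21.1, 42.4, 34.4 and 20.3 with Ind, and 13.6, 14.4, 18.5, 18.8 and 7.49 in NS. Again the MF+Ind libraries did not overlap the rest, and the interaction was 1.60 ± 0.22 (SE, limma adjusted p = 0.00110). FLVCR2, a transporter of the major facilitator family, averaged 27.4 ± 4.73 with MF+Ind, 2.60 ± 0.648 with MF, 4.65 ± 0.887 with Ind and 0.990 ± 0.203 in NS (SD, n = 5 each). SLC7A2, a transporter of arginine and other cationic amino acids, averaged 11.3 ± 2.72 with MF+Ind, 1.32 ± 0.179 with MF, 2.50 ± 0.606 with Ind and 0.844 ± 0.294 in NS. SLC16A14, of the monocarboxylate transporter family, averaged 7.0 ± 2.07 with MF+Ind, 1.96 ± 1.18 with MF, 0.766 ± 0.243 with Ind and 0.824 ± 0.274 in NS. The log2 interactions of these 3 genes were 1.49, 1.47 and 1.53.

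MN1 and CGA were called higher with indacaterol alone and not called with mometasone alone. MN1, a transcriptional coregulator, averaged 15.1 ± 2.00 with MF+Ind, 1.17 ± 0.622 with MF, 3.58 ± 0.438 with Ind and 0.674 ± 0.216 in NS (SD, n = 5 each). CGA, the common alpha subunit of the glycoprotein hormones, had 5.09, 11.2, 7.23, 11.2 and 7.91 with MF+Ind, 0.52, 0.25, 0, 0.16 and 0.44 with MF, 3.31, 2.15, 1.38, 3.80 and 1.83 with Ind, and 0.53, 0.21, 0.20, 0.24 and 0.17 in NS. Mometasone alone left CGA within the NS range save for 1 library listed at 0 and 1 at 0.16, and the pair was above every Ind library. Its interaction was 1.45 ± 0.28 (SE, limma adjusted p = 0.0128), a call lost when replicate 2, 3, 4 or 5 was left out. RGS2, which shortens signalling by Gq-coupled receptors and was called higher with each agent alone, had 161, 177, 158, 168 and 178 with MF+Ind, 12.4, 7.37, 9.23, 9.30 and 15.6 with MF, 47.3, 67.6, 64.8, 50.2 and 49.2 with Ind, and 7.41, 6.35, 5.00, 6.27 and 7.64 in NS. The 5 MF+Ind libraries lay close together, well above Ind. RGS2 had an interaction of 0.97 ± 0.21 (SE, limma adjusted p = 0.0358), a call lost without any 1 of the 5 replicates, and under median-ratio and equal-sum scaling.

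RASD1, a small Ras-like GTPase first known as a dexamethasone-induced gene, was called for neither agent alone. Its values were 2.37, 4.79, 5.52, 3.74 and 3.22 with MF+Ind, 0.36, 0.21, 0.06, 0.27 and 0.33 with MF, 0.34, 0.55, 0.66, 0.38 and 0.47 with Ind, and 0.10, 0.15, 0.10, 0 and 0.12 in NS. Every Ind library lay above every NS library, although on the scale of value + 1 the rise with Ind was only 1.35-fold. All libraries outside MF+Ind were below 1, and the interaction was 1.52 ± 0.22 (SE, limma adjusted p = 0.00127). With 0.1 in place of 1 as the added value the RASD1 call was lost (limma adjusted p = 0.154), as were those of MN1, CGA, KRT16 and PTGS2. RASD1 is 1 of 9 genes above the sum that passed the filter on low values only through their MF+Ind libraries, so that they could enter the test only by being high there. The others are ACSL5, C11orf96, HS3ST1, HSD3B1, NPTX1, PTGS2, RBBP8NL and STYK1. RBBP8NL had 1.16, 1.72, 1.35, 2.23 and 1.48 with MF+Ind, was listed at 0 in all 5 MF libraries, and reached at most 0.16 with Ind and 0.06 in NS.

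Further genes without a call for either agent belong to known pathways. SOX9, a transcription factor of the SRY-related family, averaged 15.2 ± 7.50 with MF+Ind, 2.75 ± 1.02 with MF, 3.50 ± 1.26 with Ind and 2.34 ± 0.618 in NS (SD, n = 5 each), with an interaction of 1.61 ± 0.25 (SE). EIF2AK3, the endoplasmic reticulum stress kinase PERK, averaged 42.2 ± 9.45 with MF+Ind, 11.7 ± 2.12 with MF, 13.3 ± 3.80 with Ind and 10.3 ± 3.79 in NS, with an interaction of 1.39 ± 0.20 (SE). In both genes the groups without the pair overlapped each other, and MF+Ind overlapped none of them. PTGS2, the inducible cyclooxygenase, averaged 1.67 ± 0.500 with MF+Ind, 0.236 ± 0.144 with MF, 0.212 ± 0.0847 with Ind and 0.0960 ± 0.0902 in NS.

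JUN, a subunit of the factor AP-1, was above the sum in another way. It fell to 16.1 ± 2.76 with MF+Ind, 23.1 ± 2.99 with MF and 31.4 ± 2.71 with Ind, against 69.9 ± 4.04 in NS (SD, n = 5 each). The pair lowered JUN to 0.239 of NS, where the product of the single folds was 0.154, an interaction of 0.63 ± 0.12 (SE, limma adjusted p = 0.0123).

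**Figure D2:**
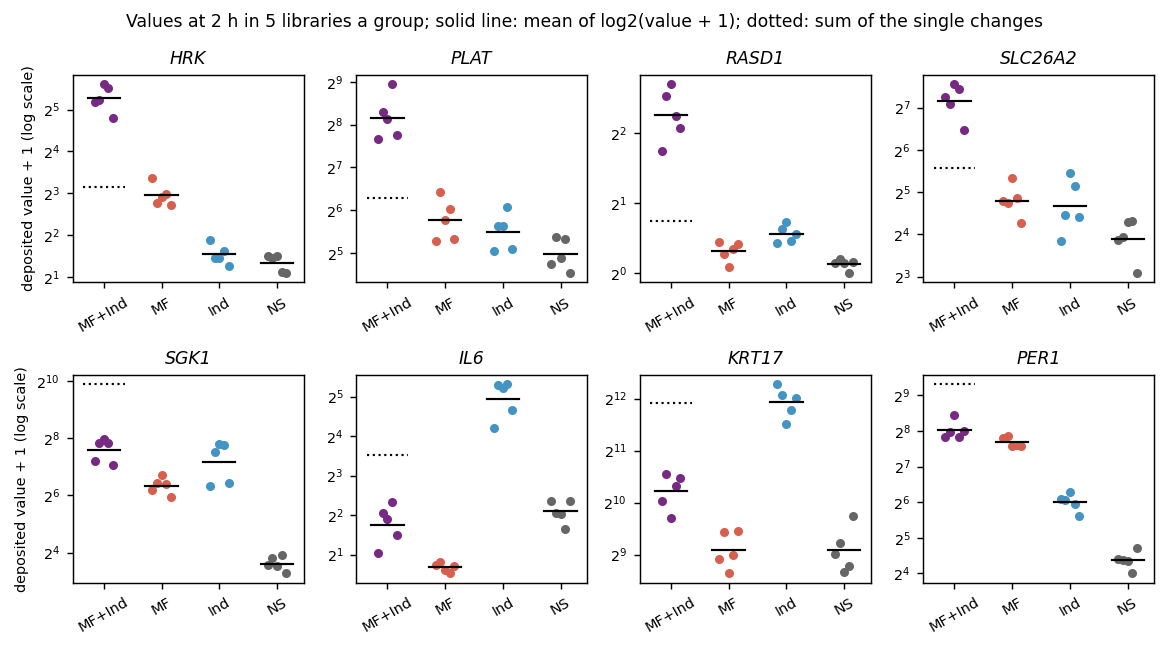
Deposited values plus 1 (log axis) of HRK, PLAT, RASD1 and SLC26A2 (top) and SGK1, IL6, KRT17 and PER1 (bottom) in the 5 libraries of each group at 2 h, with MF+Ind at the left and NS at the right. Solid lines are means of log2(value + 1) and dotted lines the level that the sum of the single changes gives for MF+Ind; the MF+Ind points lie above the dotted line in the top row and below it in the bottom row.

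The genes below the sum included 8 known glucocorticoid targets, each also raised by indacaterol. SGK1, the serum- and glucocorticoid-regulated kinase that acts on epithelial sodium transport, departed most among the called genes. SGK1 (chromosome 6, 134169246 to 134318112, minus strand) had 145, 226, 249, 227 and 133 with MF+Ind, 71.9, 86.4, 105, 82.8 and 61.2 with MF, 78.6, 182, 221, 217 and 85.0 with Ind, and 10.7, 12.8, 10.6, 14.1 and 8.67 in NS. The MF+Ind and Ind libraries overlapped, both far above NS. The pair raised SGK1 15.6-fold, against 77.7-fold for the product of the single folds, an interaction of -2.32 ± 0.22 (SE, limma adjusted p = 2.79e-05). MF+Ind against Ind was not called (log2 0.41, limma adjusted p = 0.0982). On the linear scale SGK1 stayed below the sum of the single differences, by 30.7, without a call (limma adjusted p = 0.674).

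PER1, a repressor of the circadian clock, and DDIT4, an inhibitor of the growth kinase complex mTORC1, ended near their level with mometasone alone. PER1 had 226, 252, 346, 227 and 255 with MF+Ind, 222, 232, 191, 193 and 191 with MF, 66.9, 65.5, 76.5, 60.9 and 48.3 with Ind, and 20.4, 19.7, 19.5, 15.03 and 25.4 in NS. DDIT4 had 299, 329.8, 417, 341 and 334 with MF+Ind, 316, 328, 339, 300.1 and 345 with MF, 88.8, 105, 171, 82.3 and 75.6 with Ind, and 36.4, 31.4, 39.8, 25.3 and 39.9 in NS. For both genes MF+Ind overlapped MF, and Ind lay between NS and MF without overlap. The interactions were -1.30 ± 0.18 and -1.45 ± 0.19 (SE, limma adjusted p = 0.00110 and 0.000650). On the linear scale DDIT4 stayed below the sum without a call (limma adjusted p = 0.301).

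DUSP1, a phosphatase that inactivates MAP kinases, rose with the pair above both single agents and still ended below their product. It had 455, 633, 724, 598 and 493 with MF+Ind, 337, 414, 313, 361 and 370.0 with MF, 148, 254, 286, 214 and 166 with Ind, and 51.5, 50.3, 53.8, 41.2 and 49.97 in NS. No MF+Ind library overlapped another group. The combined rise was 11.4-fold, against 29.7-fold for the product (interaction -1.38 ± 0.18, SE, limma adjusted p = 0.000847). DMBT1, a scavenger receptor glycoprotein of mucosal surfaces, averaged 70.7 ± 24.3 with MF+Ind, 14.8 ± 5.06 with MF, 39.3 ± 14.9 with Ind and 2.23 ± 1.32 in NS (SD, n = 5 each). The transcription factors CEBPD and KLF9 were alike in form, at 225 ± 39.5 and 73.9 ± 16.1 with MF+Ind, 91.8 ± 22.1 and 50.8 ± 10.00 with MF, 139.7 ± 27.8 and 20.3 ± 5.67 with Ind, and 26.9 ± 8.90 and 6.91 ± 1.49 in NS. On the linear scale the direction of 7 of the 48 genes turned: DUSP1, DMBT1, PER1, CEBPD and KLF9 were among those whose value with the pair exceeded the sum of the single differences, by 57.2 for DUSP1 and 11.6 for PER1, without a call.

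Keratins and surface proteins were among the 18 genes below the sum that rose with indacaterol alone and were not called with mometasone alone. KRT17, a keratin of basal and stressed epithelium, had 1045, 1496, 835, 1281 and 1423 with MF+Ind, 483, 688, 398, 508 and 696 with MF, 4951, 4268, 2915, 3523 and 4113 with Ind, and 515, 599, 407, 441 and 861 in NS. All MF+Ind libraries were below all Ind libraries. The pair raised KRT17 2.18-fold, against 7.11-fold for the product, an interaction of -1.70 ± 0.17 (SE, limma adjusted p = 4.26e-05). KRT16 averaged 1.29 ± 0.469 with MF+Ind, 0.396 ± 0.257 with MF, 5.36 ± 1.41 with Ind and 0.422 ± 0.0981 in NS. Without its Ind libraries KRT16 would not have passed the filter on low values. The pseudogene KRT17P1 was also called. These keratin genes have near-identical copies, and how reads shared between them were counted is not given in the sources used here, so their separate values are uncertain. The 12 epithelial markers summed to 1467 to 2446 with MF+Ind, 1049.7 to 1864 with MF, 3574 to 6138 with Ind and 1076 to 2214 in NS, KRT17 being the largest part with Ind, and their part in other results was not tested.

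TM4SF1, a surface protein of the transmembrane 4 family, averaged 55.9 ± 11.4 with MF+Ind, 24.5 ± 3.08 with MF, 170.0 ± 15.1 with Ind and 28.9 ± 3.57 in NS (SD, n = 5 each), an interaction of -1.38 ± 0.14 (SE). For WWP2, a ubiquitin ligase, and C15orf48, which encodes a small mitochondrial protein, the pair overlapped NS. WWP2 averaged 19.7 ± 2.47 with MF+Ind, 18.1 ± 1.29 with MF, 45.0 ± 7.29 with Ind and 18.8 ± 0.918 in NS. C15orf48 had 0.72, 0.14, 0.20, 0 and 0 with MF+Ind, 0.34, 0.23, 0, 0 and 0.17 with MF, 2.63, 2.08, 2.80, 2.00 and 2.83 with Ind, and 0.49, 0, 0, 0 and 0.13 in NS. In both genes the Ind libraries stood above all others and the remaining groups overlapped. C15orf48 reached 1 only in its Ind libraries, so it could enter the test only by being high there. SLC2A3, a glucose transporter with a near-identical paralogue, averaged 20.7 ± 6.95 with MF+Ind, 9.19 ± 3.66 with MF, 82.5 ± 22.3 with Ind and 12.4 ± 3.36 in NS.

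The secreted signals IL6, IL11 and CCL2 were among 8 genes below the sum that rose with indacaterol alone and fell with mometasone alone. IL6, the gene of interleukin 6, had 1.05, 3.12, 2.75, 3.99 and 1.82 with MF+Ind, 0.66, 0.74, 0.52, 0.44 and 0.65 with MF, 17.5, 37.9, 36.3, 38.7 and 24.5 with Ind, and 4.16, 3.18, 3.11, 2.15 and 4.12 in NS. MF+Ind overlapped NS and lay below every Ind library. On the scale of value + 1 the pair gave 0.792 of NS, against 2.68 for the product, an interaction of -1.76 ± 0.31 (SE, limma adjusted p = 0.00754). The IL6 call was lost when replicate 2 or 3 was left out, and with 0.1 in place of 1 as the added value (-1.34, limma adjusted p = 0.206). IL11, a cytokine of the same family, had 12.4, 24.99, 32.7, 26.9 and 12.2 with MF+Ind, 6.83, 9.44, 6.53, 6.93 and 5.14 with MF, 115, 166, 169, 199 and 79.1 with Ind, and 15.9, 21.5, 16.5, 16.5 and 9.04 in NS. Here too the pair overlapped NS, and the interaction was -1.66 ± 0.22 (SE, limma adjusted p = 0.000847). CCL2, a monocyte chemoattractant, averaged 37.1 ± 8.0 with MF+Ind, 22.0 ± 6.47 with MF, 219 ± 41.3 with Ind and 64.2 ± 6.01 in NS (SD, n = 5 each), and its interaction of -0.99 was lost as a call without replicate 2, 3, 4 or 5.

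DHRS3, which reduces retinaldehyde, was among the 28 called genes with the largest departures. It was called higher with MF (log2 0.68) and with Ind (0.53) but not with the pair (0.13). Its values differed more between replicate numbers than between treatments, at 6.43, 1.46, 2.94, 1.02 and 8.88 with MF+Ind and 6.37, 1.35, 1.84, 1.05 and 8.19 in NS. Without the replicate number in the model the adjusted p was 0.998.

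To show the stretch of DNA upstream of genes with opposite departures, RefSeq promoter windows (GRCh38.p14, 250 bases before to 50 after the first start listed for a gene) were searched for TGACG, the core of the cyclic AMP response element, on both strands. The windows of CGA (chr6:87095057-87095356), RASD1 (chr17:17496346-17496645) and DUSP1 (chr5:172771146-172771445) lie on the minus strand and that of IL6 (chr7:22726950-22727249) on the plus strand. Capitals mark TGACG, or CGTCA where it lies on the opposite strand.
CGA: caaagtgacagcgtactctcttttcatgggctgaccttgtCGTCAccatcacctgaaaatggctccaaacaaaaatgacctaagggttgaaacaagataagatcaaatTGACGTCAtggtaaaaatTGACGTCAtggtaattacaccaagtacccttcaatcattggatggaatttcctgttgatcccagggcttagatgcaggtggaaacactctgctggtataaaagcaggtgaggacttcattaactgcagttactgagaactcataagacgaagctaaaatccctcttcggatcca
RASD1: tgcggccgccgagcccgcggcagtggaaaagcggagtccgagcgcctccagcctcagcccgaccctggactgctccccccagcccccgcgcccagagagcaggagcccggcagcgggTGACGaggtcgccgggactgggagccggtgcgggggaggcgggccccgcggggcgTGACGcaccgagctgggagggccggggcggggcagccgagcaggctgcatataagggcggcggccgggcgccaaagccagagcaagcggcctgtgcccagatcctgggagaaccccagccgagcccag
DUSP1: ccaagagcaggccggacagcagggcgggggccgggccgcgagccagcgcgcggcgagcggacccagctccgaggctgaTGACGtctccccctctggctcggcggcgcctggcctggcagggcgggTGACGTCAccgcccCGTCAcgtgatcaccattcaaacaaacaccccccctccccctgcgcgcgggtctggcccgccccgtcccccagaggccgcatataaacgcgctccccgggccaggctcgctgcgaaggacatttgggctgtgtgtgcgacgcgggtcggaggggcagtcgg
IL6: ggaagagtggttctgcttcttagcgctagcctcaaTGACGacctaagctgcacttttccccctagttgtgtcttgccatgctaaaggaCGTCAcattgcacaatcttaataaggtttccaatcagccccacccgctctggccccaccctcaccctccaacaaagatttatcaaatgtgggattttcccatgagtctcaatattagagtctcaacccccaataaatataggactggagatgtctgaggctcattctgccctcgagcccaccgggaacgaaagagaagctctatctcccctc
The CGA window, of a gene above the sum, holds the full palindrome TGACGTCA at 2 positions. The DUSP1 window, of a gene below the sum, holds it at 1. RASD1 and IL6 have TGACG alone, at 2 positions each. Every window shown holds TGACG, whereas most windows of called genes lacked it, so those shown do not stand for the rest. CGA and DUSP1 were the only called genes whose windows held the palindrome. Of the 124 called genes, 88 were in the table. TGACG occurred in 20 of 53 windows of genes above the sum (37.7%), in 9 of 35 below (25.7%) and in 6828 of all 27305 (25%). The palindrome, which contains TGACG on both strands, occurred in 1 of 53, 1 of 35 and 540 of all (1.98%). For glucocorticoid elements, TGTTCT was found in 1 of 53, 0 of 35 and 4056 of all windows (14.9%), and ACANNNTGT in 5 of 53, 0 of 35 and 1488 of all (5.45%). Median GC content was 67.7% above, 66.7% below and 58.3% over all windows, and its part in these shares was not tested. A match is a description of the letters and shows no binding.

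The pathway lists, written with earlier results of these data known, place these genes. Of 36 known glucocorticoid targets 33 were tested. Mometasone alone raised 31 of them and indacaterol alone 15. For the interaction, 8 were below the sum (SGK1, DDIT4, DUSP1, PER1, CEBPD, KLF9, CEBPB and NFKBIA), 1 was above (CDKN1C), and the median was 0.17, against 0.02 over all genes tested. Over all genes tested 0.36% were below and 0.569% above the sum, and mometasone alone raised 2.63% and indacaterol alone 4.94%. NFKBIA, the inhibitor that holds NF-kB in the cytoplasm, averaged 115 ± 12.6 with MF+Ind, 130.04 ± 12.5 with MF, 31.5 ± 3.90 with Ind and 22.5 ± 2.52 in NS (SD, n = 5 each). CDKN1C, an inhibitor of cyclin-dependent kinases, averaged 28.7 ± 13.0 with MF+Ind, 6.43 ± 3.53 with MF, 5.21 ± 3.53 with Ind and 2.41 ± 0.940 in NS. Its interaction of 1.29 ± 0.19 (SE) was positive in 5 of 5 replicates. For this list the count was 2 above and 5 below with columns scaled to equal sums, and 0 above and 4 below without the replicate number.

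Of 28 targets of cyclic AMP and CREB 24 were tested, and indacaterol alone raised 22 of them, beside 4.94% of all genes tested. For the interaction, 0.569% of all genes tested were above the sum and 0.36% below. PER1, DUSP1 and IL6 were below the sum and RGS2 and CGA above, with a median interaction of -0.38. Among the 7 cytokines and chemokines tested, IL6, IL11 and CCL2 were below the sum and none was above (median -0.50). Of 21 immediate early genes, JUN was above, and JUNB and IER5 were below. JUNB averaged 21.4 ± 3.07 with MF+Ind, 14.6 ± 4.25 with MF, 29.4 ± 6.90 with Ind and 9.98 ± 1.84 in NS (SD, n = 5 each). IER5 averaged 16.1 ± 2.94 with MF+Ind, 26.3 ± 6.85 with MF, 21.6 ± 4.44 with Ind and 24.5 ± 5.11 in NS.

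Of 16 MAP kinase phosphatases and feedback inhibitors of ERK, DUSP4, DUSP5 and SPRY4 were above the sum and DUSP1 below, beside 0.569% above and 0.36% below over all genes tested. DUSP5, a nuclear phosphatase of ERK, averaged 87.4 ± 26.3 with MF+Ind, 29.6 ± 10.7 with MF, 34.0 ± 10.5 with Ind and 22.7 ± 4.81 in NS (SD, n = 5 each). SPRY4, a Sprouty inhibitor of receptor tyrosine kinase signalling, averaged 1.88 ± 1.04 with MF+Ind, 0.896 ± 0.360 with MF, 0.468 ± 0.304 with Ind and 1.13 ± 0.529 in NS. Of 18 KLF and C/EBP factors 4 were below and none above, beside the same shares over all genes tested. With columns scaled to equal sums 2 of them were below, and without the replicate number 0. CEBPA averaged 0.628 ± 0.155 with MF+Ind, 0.282 ± 0.0776 with MF, 2.20 ± 0.691 with Ind and 0.316 ± 0.159 in NS. CEBPA reached 1 only in its Ind libraries, so it could enter the test only by being high there.

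The remaining lists held at most 2 calls each, beside 0.569% above and 0.36% below over all genes tested. NFKBIA was the only call among 15 NF-kB subunits and inhibitors, PER1 among 17 clock genes, RGS2 among 11 RGS genes, PTGS2 among 9 genes of prostaglandin synthesis and response, CDKN1C among 25 cell cycle genes and KRT17 among 9 epithelial markers. Of 14 YAP and SRF targets, ANKRD1 was above and CCN1 below. CCN1, a secreted matrix protein, was changed by neither agent alone at the threshold and averaged 248 ± 57.3 with MF+Ind, 442 ± 66.8 with MF, 382 ± 64.8 with Ind and 427 ± 69.5 in NS (SD, n = 5 each). Of 11 genes of ion transport, SLC26A2 was above and SGK1 below. None of 11 phosphodiesterases, 7 EGF receptors and ligands, 5 fibroblast markers or 2 leukocyte markers was called for the interaction.

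NR3C1, the glucocorticoid receptor, averaged 48.4 ± 13.8 with MF+Ind, 31.4 ± 9.78 with MF, 61.5 ± 23.2 with Ind and 36.8 ± 10.4 in NS (SD, n = 5 each), and its interaction of -0.09 ± 0.18 (SE) was not called (limma adjusted p = 0.874).

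In the 20 separate libraries with carbachol, 77 genes (0.578% of 13312 tested) were above the sum and 58 (0.436%) below. Of the 124 genes called without carbachol 122 were tested with it, 121 departed in the same direction, and 76 were also called in that direction (62.3% of the 122, or 56.3% of the 135 called with carbachol). By side this was 51 of 75 above the sum (68%) and 25 of 47 below (53.2%). The exception in sign was STYK1, named after its values were seen, at 0.86 without carbachol and -0.25 with it. Over all 13170 genes tested in both, 72.8% had the same sign and Pearson's r across genes was 0.56, a description only, as genes are not independent and the replicate numbers are shared.

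HRK averaged 31.9 ± 5.48 with MF+Ind, 6.69 ± 0.949 with MF, 2.57 ± 0.906 with Ind and 1.56 ± 0.501 without either agent, all in the presence of carbachol (SD, n = 5 each), and its interaction was 1.63 ± 0.21 (SE, limma adjusted p = 0.000551). SGK1 averaged 183 ± 56.6, 72.1 ± 13.0, 155 ± 71.0 and 12.5 ± 2.7 in the same groups, an interaction of -2.12 ± 0.21 (SE, limma adjusted p = 4.57e-05). IL6 averaged 6.20 ± 2.62, 0.714 ± 0.336, 47.4 ± 18.7 and 3.35 ± 0.845, and its interaction of -1.38 ± 0.36 (SE) was not called (limma adjusted p = 0.0847). A call in 1 set and not in the other shows no difference. The difference itself, fitted in all 40 libraries, was called by limma for no gene (0% of 13826), with 296 genes at an unadjusted p under 0.05, and by none of the alternative fits. A p that misses the threshold does not show that the interactions were equal: for KRT17 the difference was 0.53 and for HRK -0.49 on the log2 scale.

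**Figure D3:**
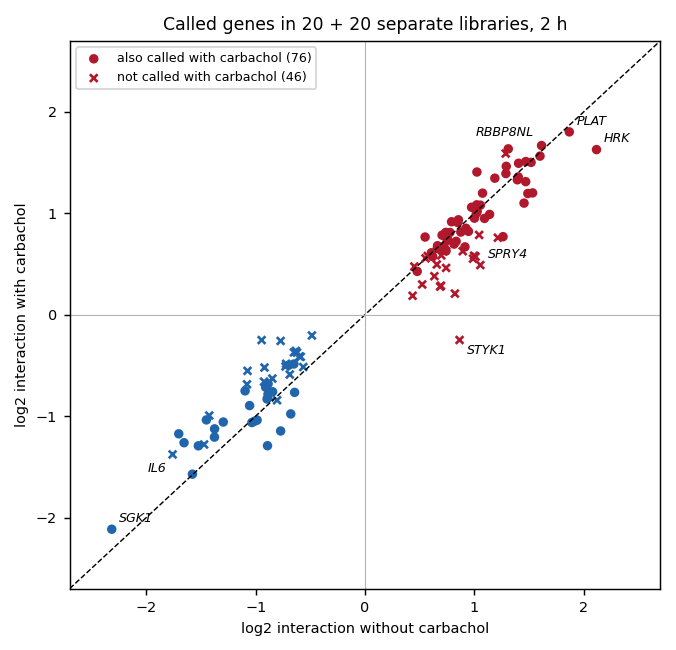
Log2 interaction at 2 h without carbachol (horizontal) and with carbachol (vertical) for the 122 called genes tested in both sets of 20 libraries, which share no library. Circles were also called with carbachol (76) and crosses were not (46), red genes lie above and blue below the sum without carbachol, and the dashed line marks equality; 121 points keep their sign, the exception being STYK1.

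The same 4 treatments at other times gave fewer calls. At 1 h, with 19 libraries because replicate 5 of MF is marked as excluded in the deposited table, 4 genes were called (0.03% of 13327): RASD1 above the sum, and SGK1, DUSP1 and DDIT4 below. The standard error of the interaction at 1 h was 0.38 for HRK and 0.39 for PLAT, against 0.18 and 0.16 at 2 h. For SGK1 it was 0.17 against 0.22. A call missed at 1 h therefore does not show that a gene had no interaction. At 6 h, with 20 libraries, 63 were called (0.473% of 13313), 40 above and 23 below. Of the genes above the sum at 2 h, 63 of 70 tested had the same sign at 1 h and 62 of 71 at 6 h, with median interactions of 0.43 and 0.45. Of those below, 41 of 45 had the same sign at 1 h and 35 of 46 at 6 h, with medians of -0.40 and -0.22.

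At 6 h 15 of the genes above the sum at 2 h were called again in that direction, among them PLAT (2.07, limma adjusted p = 2.52e-05), RGS2 (1.55), ZFAND5 (1.39), HRK (1.37), SLC26A2 (1.27) and MN1 (0.92). Of the genes below, C15orf48, CCL2, DMBT1, IL11, CEBPB and RAP1GAP2 were called again. The interaction of SGK1 was -1.92 at 1 h, -2.32 at 2 h and -0.74 at 6 h, where it was not called (limma adjusted p = 0.0963). That of PER1 was -1.15, -1.30 and 0.34, and that of IL6 -1.41, -1.76 and 0.28, with a call at 2 h only. No difference between times was tested.

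**Figure D4:**
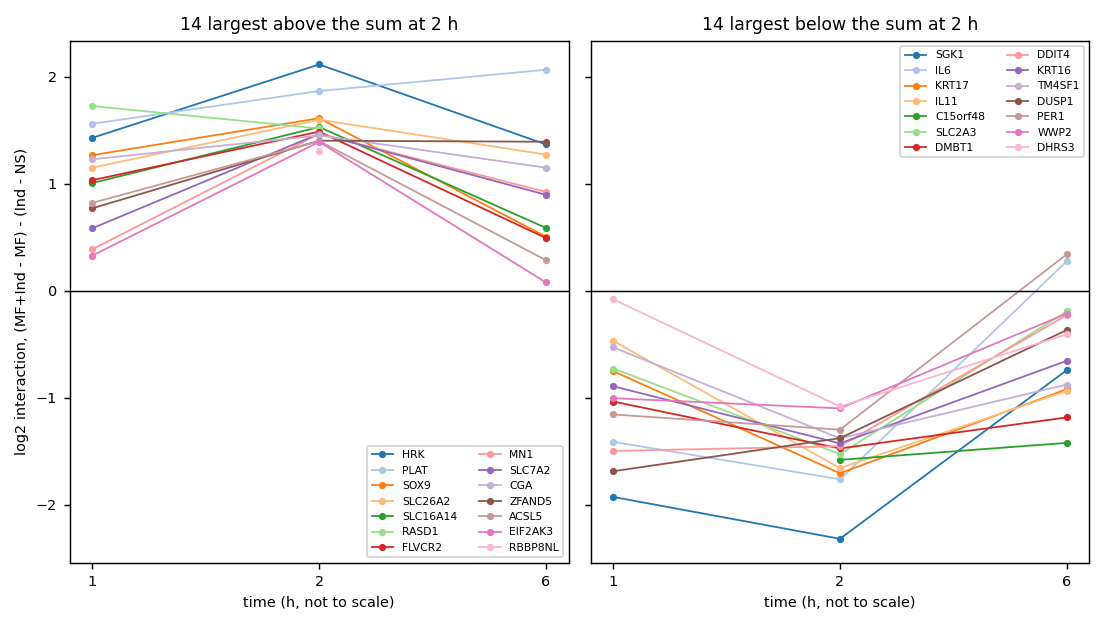
Log2 interaction at 1, 2 and 6 h (horizontal axis, not to scale) for the 14 largest genes above the sum at 2 h (left) and the 14 largest below it (right), 1 line a gene, from separate libraries at each time. Genes not tested at a time have no point there; PLAT stays near 2 up to 6 h, while SGK1 moves to -0.74 and PER1 and IL6 to just above 0.

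With the replicate number left out of the model, 20 genes were above the sum and 12 below, all among the 76 and the 48. Of the 14 largest in each direction 10 kept their call, the exceptions being SOX9, SLC26A2, SLC16A14 and EIF2AK3 above and IL11, SLC2A3, DMBT1 and DHRS3 below. Of those that kept it, RASD1, ACSL5 and RBBP8NL would not have passed the filter on low values without their MF+Ind libraries. The same holds for C15orf48 and KRT16 without their Ind libraries. Leaving out 1 replicate number at a time gave 27 to 66 genes above (lowest without replicate 3) and 21 to 51 below (lowest without replicate 2); of these 28, only CGA, ACSL5 and IL6 lost their call in any of these 5 fits. The 28 were chosen as the largest departures in the same values, so how they held in these fits is no separate support. The 16 genes named from the lists, which include none of the 28, lost their call more often. Without the replicate number only PTGS2 kept its call, a gene that passed the filter on low values only through its MF+Ind libraries. With 1 replicate left out 13 of the 16 lost their call at least once, all but CEBPD, CDKN1C and CCN1. Scaling columns to equal sums moved the median interaction of all genes to 0.16 and gave 66 above and 21 below, or 75.9% above against 61.3% as deposited. Under that scaling JUNB, IER5, NFKBIA, KLF9, RGS2 and CCN1 were among the genes that lost their call.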

How the data were processed

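Sequencing and processing were done by the authors. Per the submitters' processing notes, reads were demultiplexed with bcl2fastq 2.17.1.14 and aligned with STAR 2.4.2a to GRCh38. How reads were assigned to genes, with which annotation and strand setting, and how libraries were scaled is not stated by any source used here. The authors deposited 1 normalised signal per gene and library for 29273 genes, headed TPM, although the columns differ in their sums. Depth is unknown, so no counting interval is given, and a 0 is reported as listed.

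Each column was tied to the label with its treatment, replicate number and time. 10 columns were not used, 6 headed 8 h, a time no label gives, and 4 marked as excluded. The interaction was tested on log2(value + 1) in R 4.3.3 by limma 3.58.1, with 4 groups and the replicate number as a block (12 residual degrees of freedom), eBayes with a mean-variance trend, and Benjamini-Hochberg adjustment over all genes that reached 1 in 5 or more of the 20 columns. The block is part of the comparison as it was set, which takes differences within a replicate number. The carbachol set, 1 h and 6 h were fitted alike, and the difference of the interactions in 40 libraries. The script was tested on simulated data with 200 changed genes.

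The comparison and the gene lists were chosen with earlier results of these data known. Genes are named as the 14 largest called interactions in each direction with all 5 replicates of 1 sign, up to 3 called members of each list by size, and the glucocorticoid receptor gene NR3C1. 1 further gene that the rule names is not reported here. Others are named to complete a count. Coordinates are from GENCODE 29, where 44 of 45 named symbols matched, and promoters from RefSeq. Tables and plots used Python 3.11.15, numpy 2.4.6, pandas 2.3.3 and matplotlib 3.10.9. Alternatives were the model without the block, per-replicate interactions alone, other fits, pseudocounts, filters and scalings, a mitochondrial covariate, and leaving out replicates or, added after seeing the data, the 2 libraries over 20% mitochondrial.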

Additional observations from a re-analysis of the deposited data

Results flagged for a closer look

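In 53 sets of 5 values, 4 held a library or replicate whose gap to the nearest other value was over 0.71 of the range. Chance gives about 1 in 20 such sets. The per-replicate log2 interaction of SLC16A14 was 0.79 in replicate 5, below 1.51 to 1.79 in the other 4. That of CEBPA was -0.66 in replicate 4, nearer 0 than the others. That of ANKRD1 was 0.94 in replicate 4, above the others. The mitochondrial share of Ind replicate 1 was 27.7%, above the other 4 libraries of that group.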

How the results depend on the processing

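Counts are given as above and below the sum, without carbachol and then with it, beside 76 and 48, and 77 and 58. Without the replicate block they were 20 and 12, then 19 and 10. From per-replicate interactions alone they were 29 and 23, then 5 and 4. All 40 libraries of 2 h in 1 fit gave 118 and 79, then 103 and 68, and all times in 1 fit without the block gave 38 and 22, then 33 and 22. The linear scale gave 119 and 47, then 123 and 71, equal column sums 66 and 21, then 71 and 11, and the mitochondrial covariate 112 and 74, then 76 and 54. Leaving out 1 replicate gave 27 to 66 and 21 to 51, then 37 to 68 and 17 to 64. Other pseudocounts, filters and median-ratio scaling stayed within 1.5 times. Without the 2 libraries over 20% mitochondrial, an alternative chosen after seeing the data, the counts were 87 and 65, then 70 and 44. The cause of these moves was not tested.

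Equal sums put 75.9% of calls above the sum (61.3% as deposited), then 86.6% (57% as deposited), and moved the median of all genes to 0.16, then 0.18. The linear scale put 71.7% above, then 63.4%. The difference of the interactions stayed at 0 genes throughout.

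Signs turned on the linear scale for DMBT1 (18.8, with carbachol 10.5), DUSP1 (57.2 and 95.3), PER1 (11.6 and 7.71), CEBPD (19.98 and 9.59) and KLF9 (9.68 and 2.83), in deposited units and without a call. With equal sums NR3C1, never called, turned to 0.067 and with carbachol 0.015, and IER5 with carbachol to 0.0055. NR3C1 lay between -0.20 and 0.016 when 1 replicate was left out.

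Same-numbered libraries were checked for deviating together, as the correlation of their deviations from the group means. Without carbachol 27 of 30 pairs were over 0.1 (median 0.42), and the other 3 each held MF+Ind replicate 1 (-0.04 to 0.08), so the numbers did not pair all samples by this measure. 17 of 20 libraries correlated best with one of their own number. With carbachol 30 of 30 pairs were over 0.1. The case for the replicate block is a hint from the data and not from the labels. Depth is unknown and limits low genes by an amount that cannot be given.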
